A study of Sus scrofa with 41 samples.

Results

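The genes described here are 9 antioxidant enzymes, SOD1, SOD2, CAT, GPX1, GPX4, PRDX3, PRDX5, TXN2 and NNT, among 25880 genes counted by RNA-seq in psoas major muscle of 41 pigs. They were listed by their pig Ensembl symbol and not by a cut on a measured value, but the list was chosen with earlier results of these data known. Of the 9 genes, 8 had a row in the count tables, and 7 of these were counted well enough in the unstranded column to be tested. GPX1 was not analysed here, because the identifier that the symbol table pairs with GPX1 had no row, and GPX4 was counted as 0 in the unstranded column of all 41 pigs and was read from the stranded columns.

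The pigs were purebred uncastrated males, 13 Danbred Duroc and 28 Danbred Landrace, raised at a breeding station until slaughter, when the muscle was taken at once and kept in RNAlater. No pig was treated, and both breeds shared the diet and the sampling. For each pig the labels gave the feed conversion ratio (FCR) and also the RNA integrity number (RIN), the age at sampling and a batch number, which the methods of the study tie to the day of slaughter. The text of the study words the FCR both as gain over feed and as feed over gain. It is read here as feed over gain, since every value was 1.83 or more, and a lower FCR is then a more efficient pig. FCR ran from 1.83 to 2.25 with a median of 2.08, age from 131 to 166 days, and RIN from 6.5 to 8.8. The breeds differed in each of these, with ranges that overlapped. Median FCR was 1.94 in Duroc and 2.1 in Landrace, median age 148 and 154.5 days, and median RIN 8.2 and 8. The coefficients of breed, FCR, age and RIN therefore rest in part on the same differences between pigs, which the model cannot fully separate.

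Antioxidant enzymes form a chain. Superoxide, which leaks from the respiratory chain, is turned into hydrogen peroxide by superoxide dismutases, and the peroxide is then removed by catalase, by glutathione peroxidases or by peroxiredoxins. Peroxiredoxins are recharged by thioredoxins, and in the mitochondrial matrix the reducing power for this comes as NADPH, to which NNT contributes. Muscle that is rich in slow, oxidative fibres is rich in mitochondria and in the mitochondrial members of this chain.

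Counts on genes ran from 22188911 to 25954816 read pairs per pig, so that depth differed little between pigs. Levels are given as CPM, read counts scaled by the library total, after TMM scaling, which evens out differences in composition between libraries. Gene lengths were not at hand, so levels of different genes are not set against each other. Coefficients come from 1 model with FCR, RIN, age, breed and batch, fitted with edgeR over 11146 genes, and a gene is called when its Benjamini-Hochberg adjusted p (FDR) over all these genes is under 0.1. Genes counted as higher or lower in a breed are counted by the sign of this coefficient, which can differ from that of the unadjusted levels. In bulk muscle, fewer cells of a type and less RNA per cell cannot be told apart. Markers of the skeletal muscle fibre were high in every pig, as the summed level of 5 fast fibre markers was 19989 CPM or more and that of 6 slow fibre markers 1526 CPM or more, while the myosin heavy chains MYH7, MYH1, MYH2 and MYH4 were not analysed here.

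NNT was the antioxidant gene that set the breeds apart. It was lower in Landrace muscle, and of the 7 genes tested it was the only one called for breed. With RIN, 5 of the 7 genes were called: TXN2, PRDX5 and PRDX3 were lower, and CAT and NNT higher, in muscle with better preserved RNA. The calls of CAT and NNT were lost without the 2 pigs of RIN under 7, and that of PRDX3 depended on the processing. No antioxidant gene was called for FCR or for age.

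For breed, 33.1% of all genes tested were called, 15.6% higher and 17.5% lower in Landrace, and the count of antioxidant genes, 1 of 7, stands against that. For RIN, 51.8% of all genes were called, 23.9% rising and 27.9% falling with RIN, and 5 of 7 stands against that. The split by direction depends on the scaling: with library size alone it was 4.79% higher and 32.3% lower for breed, and 55.8% rising and 7.91% falling for RIN. With it 5 antioxidant genes were called lower in Landrace (NNT, SOD2, PRDX5, PRDX3 and TXN2) and all 7 were called for RIN, 5 rising and 2 falling. Under that scaling the median coefficient of all genes was 0.30 per unit of RIN and -0.18 for breed on the log2 scale, where it was -0.01 and -0.002 with TMM, and the directions below are relative to the TMM scale.

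**Figure D1:**
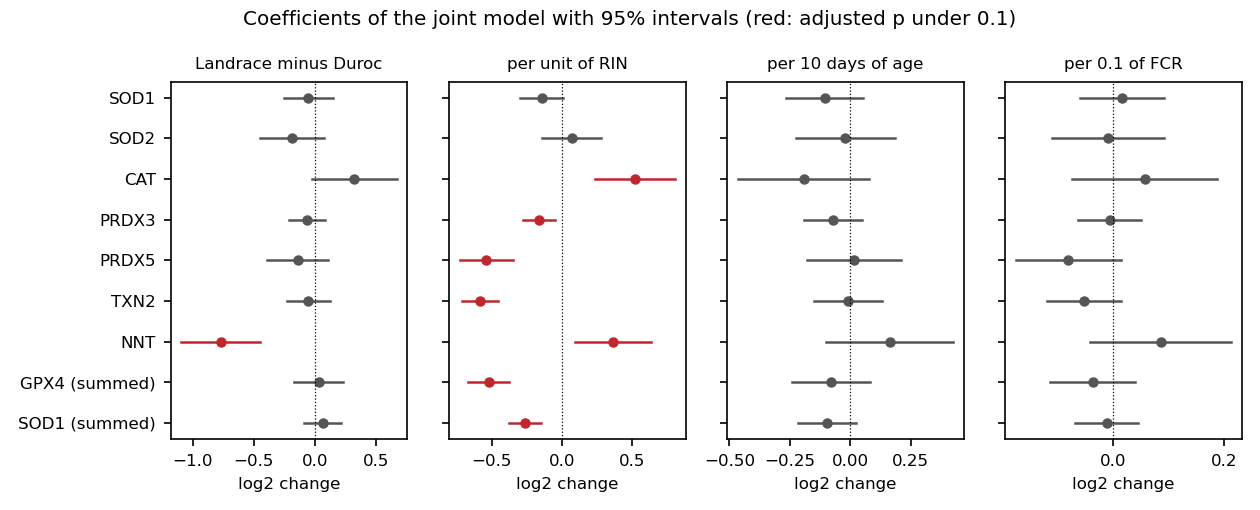
Log2 change of each antioxidant gene in the joint model, in 4 panels for breed (Landrace minus Duroc), RIN (per unit), age (per 10 days) and FCR (per 0.1). Points are coefficients and lines 95% intervals, red where the FDR is under 0.1, and the 2 lowest rows are from the summed stranded columns. NNT stands alone to the left for breed, and no point is red for age or FCR.

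The superoxide dismutases come first in the chain. SOD1 (ENSSSCG00000021355), the copper and zinc enzyme of the cytosol, spans 13:195326573-195335273 in RefSeq on Sscrofa11.1, where its end overlaps SCAF4 by 96 bases. In the unstranded column it had 195 to 414 read pairs per pig. Its level ran from 10.7 to 17.5 CPM with a median of 12.8 in Duroc and from 9.05 to 15.2 CPM with a median of 12.7 in Landrace. The breeds overlapped, with 5 Landrace pigs below the lowest Duroc pig and 3 Duroc pigs above the highest Landrace pig. The breed coefficient was -0.05 (SE 0.10, FDR = 0.747) and the RIN coefficient -0.14 (SE 0.08, FDR = 0.139), and neither was called.

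Most SOD1 pairs were not in that column. STAR leaves a read pair out of the unstranded column when it falls on 2 genes, also when they lie on opposite strands, and the libraries did not mark strand. The sum of the 2 stranded columns holds such a pair once for each gene. By that sum SOD1 had 1110 to 1654 pairs per pig, and the unstranded column held 22.7% of them. The pairs left out numbered 45119 over the 41 pigs, the same number in every pig as those left out of SCAF4, a gene for an RNA-processing factor, so 77.3% of the SOD1 pairs are read here as shared with SCAF4 and cannot be assigned to either gene. SCAF4 was found as the partner by matching these numbers, after they were seen.

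In the summed columns SOD1 ran from 40.2 to 73.6 CPM with a median of 46.4 in Duroc, and from 36.7 to 73.6 CPM with a median of 49.0 in Landrace. The breeds again overlapped, with a coefficient of 0.07 (SE 0.08, FDR = 0.565). The fall with RIN was larger than the error there, at -0.26 per unit (SE 0.06, FDR = 0.00044), but it was gone with library size scaling, at 0.001. In this count, made over 11688 genes, 33.9% of genes were called for breed and 53.5% for RIN.

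SOD2 (ENSSSCG00000040317, 1:7679352-7689564), the manganese enzyme of the mitochondrial matrix, had a lowest level of 101 CPM, a median of 155 and a highest of 197 in Duroc. In Landrace the lowest was 98.1 CPM, the median 123 and the highest 211. The distributions overlapped from end to end, but 26 of 28 Landrace pigs were below the Duroc median, and 9 of 13 Duroc pigs were above the Landrace median. With RIN, age, FCR and batch in the model the breed coefficient was -0.19 (SE 0.13, 95% interval -0.45 to 0.08, FDR = 0.322), so the difference was not called. Within batch 2 alone, which held 3 Duroc and 12 Landrace pigs, SOD2 was lower in Landrace by -0.60 (SE 0.15, FDR = 0.0285), while batches 3 and 5 gave -0.19 and 0.27 and no call. SOD2 was not called for RIN either, at 0.07 per unit (SE 0.11, FDR = 0.615).

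**Figure D2:**
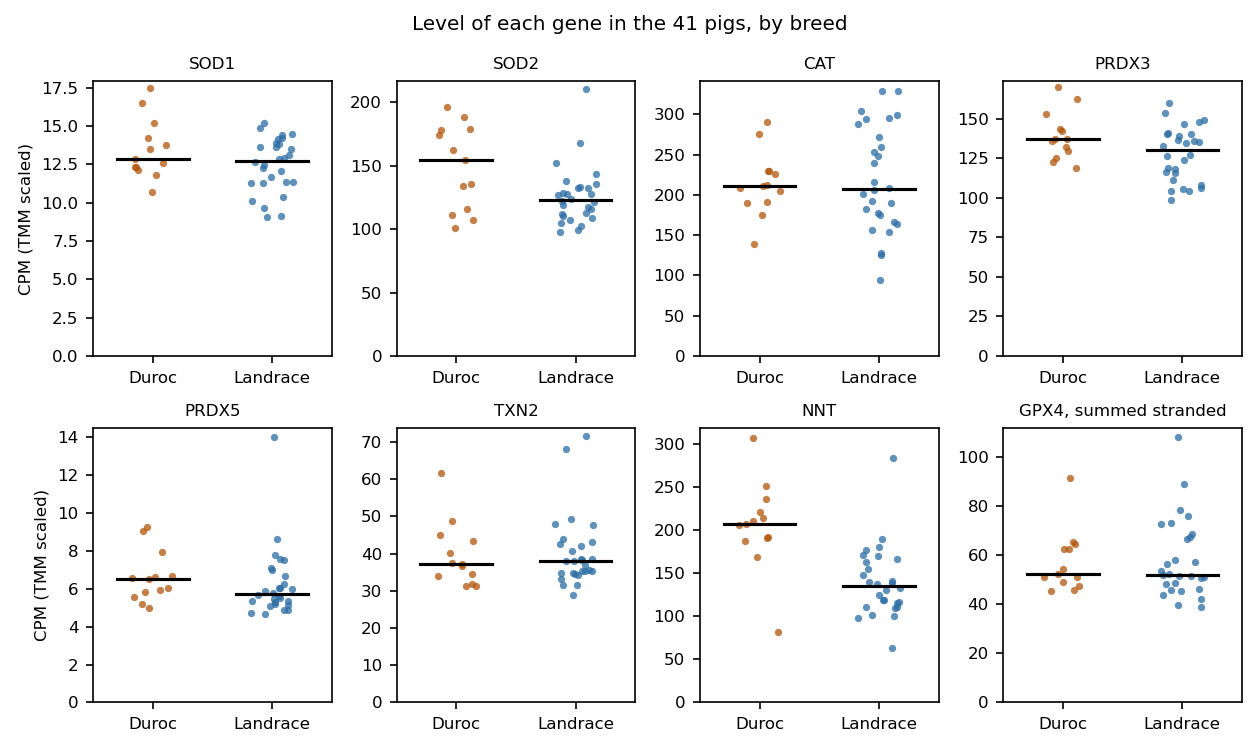
CPM after TMM scaling (vertical axes, from 0) of 7 antioxidant genes in the unstranded column and of GPX4 in the summed stranded columns, for 13 Duroc and 28 Landrace pigs. Each point is a pig and each bar the median of a breed. The NNT medians are 207 and 135 CPM, and in all 8 genes the ranges of the breeds overlap.

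Hydrogen peroxide is removed in peroxisomes by catalase. CAT (ENSSSCG00000013302, 2:26493664-26533881) ran from 140 to 291 CPM with a median of 212 in Duroc, and from 94.5 to 329 CPM with a median of 208 in Landrace. The medians were close and the Landrace pigs spread wider, with 6 of them above the highest and 3 below the lowest Duroc pig. The breed coefficient was 0.32 (SE 0.18, FDR = 0.184) and was not called. Leaving out 1 Duroc pig (Duroc 1) brought it to 0.42 and past the threshold, at FDR = 0.085, and within batches it was 0.03 in batch 2, -0.75 in batch 3 and 0.82 in batch 5.

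CAT rose with RIN by 0.52 per unit (SE 0.14, FDR = 0.00338), which is 43.7% per unit. The lowest level of all was in a Landrace pig of RIN under 7. In the 2 pigs of RIN under 7 the levels were 94.5 and 166 CPM, in the 13 pigs of RIN from 7 to under 8 the median was 191 CPM, and in the 26 pigs of RIN 8 or above it was 212 CPM. Without the 2 pigs of RIN under 7 the coefficient was 0.32 and no longer called, at FDR = 0.185. The coefficient had the same sign in both breeds, at 0.58 in Landrace (SE 0.17, FDR = 0.0113) and 0.60 in Duroc (SE 0.22, FDR = 0.242). No gene at all was called for RIN in the 13 Duroc pigs (0% against 42.9% of genes in Landrace), although 1824 genes there had an unadjusted p under 0.05.

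GPX4 (ENSSSCG00000024052, 2:77321568-77323931), a glutathione peroxidase that carries selenium and reduces lipid peroxides in membranes, had no pair in the unstranded column of any pig and 1100 to 2121 pairs per pig, with a median of 1633, in the summed stranded columns. All of its pairs, 66226 over the 41 pigs, were left out of the unstranded column, and 66231 pairs were left out of SBNO2, a transcriptional regulator; summed over the pigs the 2 numbers differed by 5. SBNO2 kept 10.2% of its pairs in the unstranded column. The match, which was found after the numbers were seen, is read here as GPX4 pairs that count for SBNO2 as well, although the RefSeq spans of the 2 genes do not overlap. Every GPX4 value below is therefore a value of pairs that count for both genes. GPX4 is not alone in this: of 12439 genes with at least 10 pairs per pig in the summed columns, 120 were at 0 and 1280 (10.3%) kept under 50% of their pairs in the unstranded column.

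**Figure D3:**
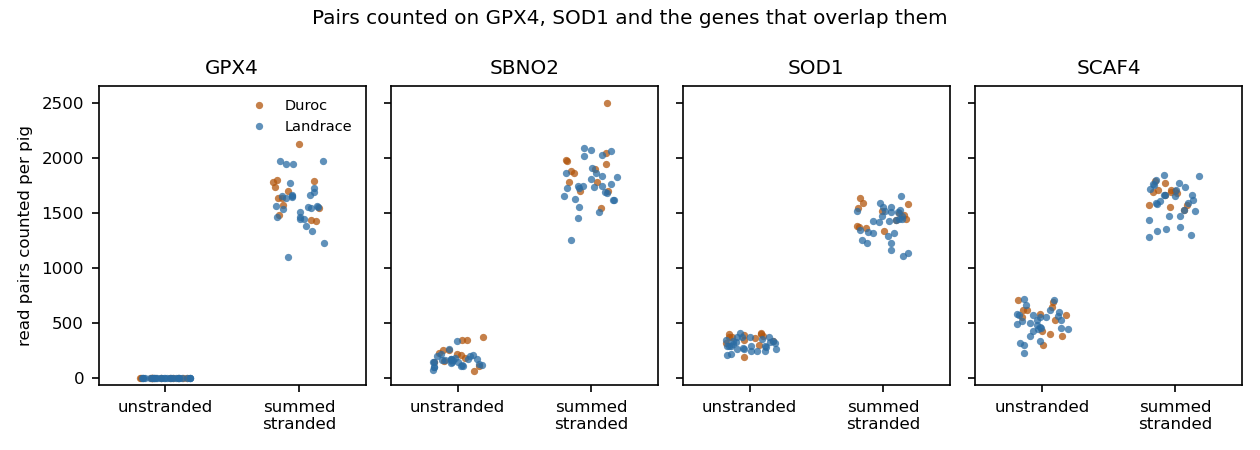
Read pairs counted per pig (vertical axis) on GPX4, SBNO2, SOD1 and SCAF4 in the unstranded column and in the sum of the 2 stranded columns, with a point for each of the 41 pigs. GPX4 is at 0 in the unstranded column of every pig and between 1100 and 2121 pairs in the sum, and SOD1 goes from 195 to 414 pairs to 1110 to 1654.

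With that limit, GPX4 ran from 45.5 to 91.5 CPM with a median of 52.2 in Duroc, and from 38.9 to 108 CPM with a median of 52.0 in Landrace. The medians were almost equal, and the breed coefficient was 0.03 (SE 0.10, 95% interval -0.17 to 0.23, FDR = 0.859). GPX4 fell with RIN by -0.52 per unit (SE 0.07, FDR = 1.15e-06) and by -0.26 with library size scaling. In the 2 pigs of RIN under 7 it stood at 88.7 and 108 CPM, against medians of 67.3 CPM at RIN from 7 to under 8 and 51.0 CPM at RIN 8 or above, and its coefficient was -0.52 in Landrace (FDR = 1.77e-05) and -0.45 in Duroc (FDR = 0.263). Only 1 Landrace pig was above the highest Duroc pig, and both of the pigs under RIN 7 were Landrace.

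Peroxiredoxins reduce peroxides with a reactive cysteine, and PRDX3 and PRDX5 do so in mitochondria, PRDX5 also in peroxisomes and the cytosol. PRDX3 (ENSSSCG00000010682, 14:129079050-129090790) was the steadiest antioxidant gene: it ran from 119 to 170.0 CPM with a median of 137 in Duroc and from 98.6 to 159.9 CPM with a median of 130.1 in Landrace. After the covariates were removed, 4.35% of all genes varied less between pigs than PRDX3. Of the Landrace pigs 11 lay below the lowest Duroc pig, but the breed coefficient was -0.06 (SE 0.08, FDR = 0.58). PRDX3 was the only antioxidant gene called for batch (FDR = 0.0301), where 24.1% of all genes were called. With library size scaling PRDX3 was not called for batch and TXN2 was (FDR = 0.0272), as 30.7% of all genes were. The batch medians were 116 CPM in batch 2 and 137, 133 and 137 CPM in batches 3, 4 and 5, so batch 2, which held 12 of the 28 Landrace pigs, was the low one.

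With RIN, PRDX3 fell by -0.16 per unit (SE 0.06, FDR = 0.0217). This call depended on the processing: it was not made in the summed stranded columns (-0.09, FDR = 0.217), it was lost when Landrace 14 or Landrace 24 was left out (FDR up to 0.108), it was lost with no filter on low counts (FDR = 0.299) or with batch as a number (FDR = 0.105), and it turned to 0.14 with library size scaling. The levels were 140.3 and 140.8 CPM in the 2 pigs of RIN under 7, with medians of 140.1 CPM at RIN from 7 to under 8 and 128 CPM at RIN 8 or above, and the ranges overlapped. In Landrace alone the coefficient was -0.15 (FDR = 0.0401) and in Duroc 0.11 (SE 0.18, FDR = 0.765).

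PRDX5 (ENSSSCG00000013030, 2:7798672-7801955) had the lowest counts of the set, 93 to 214 pairs per pig, so its counting error is the largest. It ran from 5.01 to 9.24 CPM with a median of 6.51 in Duroc and from 4.67 to 14.0 CPM with a median of 5.73 in Landrace. The highest value was far above all others and came from a Landrace pig of RIN under 7. The breed coefficient was -0.14 (SE 0.13, FDR = 0.443). PRDX5 fell with RIN by -0.54 per unit (SE 0.10, FDR = 2.72e-05), which is a fall of 31.2%. The fall kept its call without the 2 pigs of RIN under 7, and with each pig left out in turn it stayed between -0.68 and -0.41. In Landrace alone it was -0.54 (FDR = 0.000336), and in Duroc -0.10 (SE 0.24, FDR = 0.854), a difference between breeds that was not tested.

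TXN2 (ENSSSCG00000000144, 5:11264470-11289388), the mitochondrial thioredoxin that hands electrons to PRDX3 and PRDX5, had 762 to 1357 pairs per pig. Its level ran from 31.3 to 61.7 CPM with a median of 37.1 in Duroc, and from 28.8 to 71.6 CPM with a median of 38.0 in Landrace. The breeds did not differ beyond their spread, with a coefficient of -0.05 (SE 0.09, 95% interval -0.23 to 0.12, FDR = 0.7). With RIN it had the smallest FDR of the antioxidant genes, and fell by -0.58 per unit (SE 0.06, FDR = 2.41e-08), a fall of 33.2%. The 2 pigs of RIN under 7 had 68.2 and 71.6 CPM, the 13 pigs of RIN from 7 to under 8 had a median of 43.0 CPM and none of the 26 pigs of RIN 8 or above was higher than 45.0 CPM. These 2 pigs were above all 39 others. The coefficient was -0.54 in Landrace and -0.47 in Duroc, and it was -0.27 and still called with library size scaling.

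**Figure D4:**
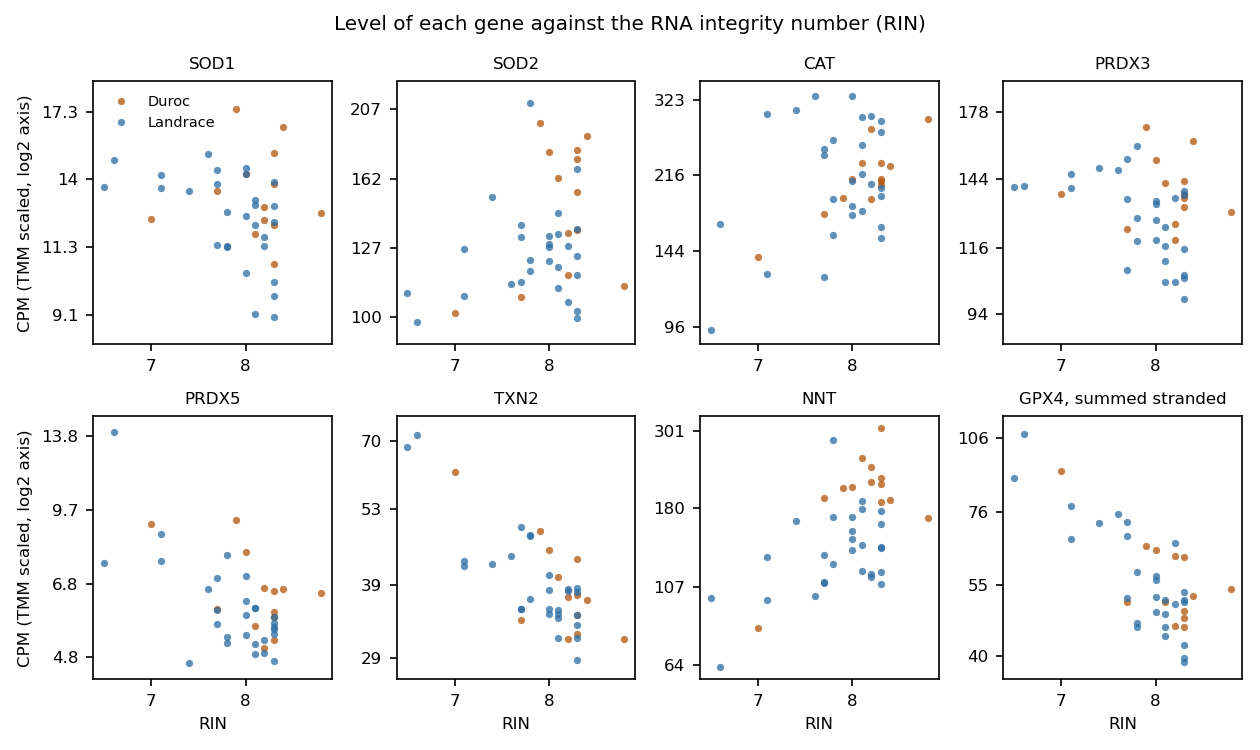
CPM after TMM scaling (vertical axes, log2 scale) against RIN (horizontal axes) for 7 antioxidant genes in the unstranded column and for GPX4 in the summed stranded columns, with a point for each of 41 pigs coloured by breed. TXN2, PRDX5 and GPX4 go down from left to right, with TXN2 at 68.2 and 71.6 CPM in the 2 pigs of RIN under 7, and CAT and NNT go up.

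NNT (ENSSSCG00000016877, 16:28157192-28248732) is the transhydrogenase of the inner mitochondrial membrane, which makes NADPH from NADH at the cost of the proton gradient. A pseudogene, LOC733587, lies inside its span, and reads that align equally well to a copy are not in these counts. In Duroc the lowest level was 81.6 CPM, the median 207 and the highest 306. In Landrace the lowest was 63.0 CPM, the median 135 and the highest 284. The breeds overlapped, but 27 of 28 Landrace pigs were below the Duroc median and 12 of 13 Duroc pigs above the Landrace median. These levels are not adjusted, and RIN, age and FCR also differed between the breeds.

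In the joint model NNT was lower in Landrace by -0.77 on the log2 scale (SE 0.17, 95% interval -1.10 to -0.45, FDR = 0.000956). This is a factor of 0.586 with the other covariates held fixed, while the unadjusted Landrace median was 0.651 times the Duroc median. DESeq2 and limma with voom gave -0.77 and -0.75. With each pig left out in turn the coefficient ran from -0.88 to -0.68 and stayed called. Within batches the sign was the same in all 3 that could be fitted, at -1.23 in batch 2 (SE 0.16, FDR = 0.00125), -0.95 in batch 3 (SE 0.49, FDR = 0.74) and -0.35 in batch 5 (SE 0.32, FDR = 0.562), but it was called in batch 2 only. In batch 2 the 3 Duroc pigs had 206 to 306 CPM and the 12 Landrace pigs 99.8 to 189 CPM, with no overlap. In batch 5 the 4 Duroc pigs had 81.6 to 214 CPM and the 7 Landrace pigs 63.0 to 171 CPM. Batch 1 held a single Duroc pig and no Landrace pig, and batch 4 was too small for a fit of its own.

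Marker genes of other kinds of fibre and cell also moved with breed. Of the slow fibre markers 2 of 6 were lower in Landrace, among them TNNI1 (-0.79, FDR = 0.0514), and their summed level ran from 4623 to 14878 CPM in Duroc and from 1526 to 18489 CPM in Landrace. Of the fast fibre markers 4 of 5 were higher in Landrace, with TNNT3 at 0.60 (FDR = 0.00108), and the sum ran from 27809 to 52529 CPM in Duroc and from 19989 to 71735 CPM in Landrace. All 4 endothelial markers that could be tested were lower in Landrace, with KDR at -1.48 (FDR = 9.52e-06). Their sum had a median of 123 CPM in Duroc, from 53.6 to 159.6, and 85.6 CPM in Landrace, from 29.0 to 136. The KDR means were 7.38 CPM in Duroc and 5.28 CPM in Landrace. KDR and CDH5 were also called for age, at 0.72 and 0.45 per 10 days (FDR = 0.0693 and 0.0965), and Landrace pigs were older. This was 2 of 4 endothelial markers beside 1.76% of all genes, and 0 of 4 with library size scaling. None of the markers tested was at 0 in all pigs. Of the other lists, 2 of 6 fibroblast, 1 of 8 leukocyte and 1 of 2 adipocyte markers were called with a negative breed coefficient, and 0 of 2 erythroid markers were called. The unadjusted levels did not always go the same way. The leukocyte marker called, CSF1R, had a mean of 8.15 CPM in Landrace and 7.69 CPM in Duroc. The summed adipocyte markers had a median of 34.2 CPM in Landrace and 21.1 CPM in Duroc. With library size scaling 6 of 6 slow fibre, 3 of 6 fibroblast and 2 of 8 leukocyte markers were lower in Landrace, and the counts for the other marker lists did not move. The background for the counts for breed is the 33.1% of all genes called for breed, and the share of slow fibre markers called is close to it. The part of these differences in the NNT result was not tested.

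NNT rose with RIN by 0.37 per unit (SE 0.14, FDR = 0.0281). The 2 pigs of RIN under 7 had 63.0 and 99.8 CPM, and the median was 131 CPM at RIN from 7 to under 8 and 169.7 CPM at RIN 8 or above. The rise was lost without these 2 pigs (0.28, FDR = 0.278) and also when Landrace 27 or Duroc 10, of RIN 6.6 and 7, was left out, where the coefficient went down to 0.24 (FDR = 0.15). In Landrace it was 0.33 (FDR = 0.0743) and in Duroc 0.87 (SE 0.35, FDR = 0.262).

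Marker levels differed between pigs of low and high RIN as well. In the 2 pigs of RIN under 7 the slow fibre markers summed to 11543 and 12861 CPM, against 1526 to 18489 CPM in the other 39. The fast fibre markers summed to 60059 and 71735 CPM against 19989 to 61293 CPM, and the 2 erythroid markers to 99.7 and 312 CPM against 6.15 to 165 CPM. In the model 5 of 6 slow fibre markers, 3 of 5 fast fibre markers, 2 of 8 leukocyte markers and both erythroid markers that were tested fell with RIN, while the other 2 fast fibre markers and 3 of 6 fibroblast markers rose and 0 endothelial and adipocyte markers were called. With library size scaling the counts for RIN were 2 slow fibre markers falling, 3 fast fibre and 2 erythroid markers falling, and 2 fast fibre, 2 leukocyte, 2 endothelial, 1 adipocyte and 4 fibroblast markers rising. These markers were called among the 51.8% of all genes that were, and their part in the RIN results of the antioxidant genes was not tested.

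FCR was the trait the study was about, and no antioxidant gene was called for it with breed, age, RIN and batch held fixed. FCR also differed between the breeds, so a difference that runs along both breed and FCR cannot be assigned to FCR here. Per 0.1 of FCR, the coefficients of the 7 genes ran from -0.08 for PRDX5 (SE 0.05, 95% interval -0.17 to 0.01, FDR = 0.635) to 0.09 for NNT (SE 0.06, 95% interval -0.04 to 0.21, FDR = 0.7). TXN2 stood at -0.05 (SE 0.03) and CAT at 0.06 (SE 0.07), and SOD1, SOD2 and PRDX3 were within 0.02 of 0. In the summed stranded columns GPX4 was at -0.04 (SE 0.04, FDR = 0.769). For FCR 0% of the 11146 genes were called, although 968 had an unadjusted p under 0.05, a group that held none of the 7 antioxidant genes. DESeq2 called 5 genes and limma 0, and neither gave an antioxidant gene an unadjusted p under 0.05.

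Nor was any antioxidant gene called for FCR within a breed. In the 28 Landrace pigs 0% of genes were called by edgeR (606 with an unadjusted p under 0.05, and 4 called by DESeq2), and the coefficients ran from -0.08 for PRDX5 to 0.06 for CAT per 0.1 of FCR. In the 13 Duroc pigs 0% were called by edgeR (564 with an unadjusted p under 0.05, and 10 called by DESeq2). There TXN2 was lower in pigs of higher FCR by -0.13 per 0.1 (SE 0.06, edgeR unadjusted p = 0.0496, FDR = 0.786). With DESeq2 and with limma 0 antioxidant genes had an unadjusted p under 0.05 in Duroc. GPX4 in the summed columns was at -0.17 in Duroc (SE 0.06, unadjusted p = 0.026, FDR = 0.77) and at 0.02 in Landrace (SE 0.05). The test of a difference between the breeds in the slope on FCR called 0% of genes (582 with an unadjusted p under 0.05, and 1 called by DESeq2), and the smallest unadjusted p of an antioxidant gene was that of TXN2, at 0.059 (FDR = 0.922).

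Age gave as little. Per 10 days the coefficients ran from -0.19 for CAT (SE 0.14, FDR = 0.517) to 0.16 for NNT (SE 0.13, FDR = 0.575), and none had an unadjusted p under 0.05. The share of all genes called for age was 1.76%. With batch as a number it was 7.3%, and 2 of the 7 antioxidant genes then had an unadjusted p under 0.05, but 0 were called (lowest FDR = 0.203). In the 28 Landrace pigs alone NNT rose by 0.43 per 10 days with an unadjusted p of 0.0408, which did not pass the correction (FDR = 0.43), and in the Duroc pigs it was at -0.06 (SE 0.24).

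The antioxidant genes did not vary as 1 group. Over the 41 pigs, with RIN, age, breed and batch removed from log2 CPM, 6 of the 21 pairs of genes were correlated at an adjusted p under 0.1, all of them positively, and r ran from -0.31 to 0.76. The 3 largest r were those among SOD2, PRDX3 and NNT, all of the mitochondrion. SOD2 and NNT had r = 0.76 and rho = 0.71 (permutation test, two-sided, p = 1e-05 for both, the smallest the permutations can give, adjusted p = 0.000105). Without the 2 pigs farthest from the median of SOD2, r was 0.71, and within batches 2, 3 and 5 it was 0.80, 0.89 and 0.65.

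SOD2 and PRDX3 had r = 0.75 and rho = 0.69 (permutation test, p = 1e-05 for both, adjusted p = 0.000105), with 0.67 without the 2 farthest pigs and 0.86, 0.78 and 0.93 within the batches. PRDX3 and NNT followed at r = 0.56 and rho = 0.50 (permutation test, p = 0.00013 and 0.00116, adjusted p = 0.00091 and 0.00812), with 0.47 without the 2 farthest pigs and 0.75, 0.66 and 0.54 within the batches. With nothing removed from log2 CPM, an alternative chosen after seeing the data, PRDX3 and NNT did not pass, at r = 0.24 and rho = 0.19 (permutation test, adjusted p = 0.198 and 0.402), with 0.17 without the 2 farthest pigs and 0.50, 0.45 and -0.17 within the batches. TXN2 varied with both peroxiredoxins it serves, with PRDX3 at r = 0.44 and rho = 0.40 (permutation test, p = 0.00438 and 0.0098, adjusted p = 0.023 and 0.0412) and with PRDX5 at r = 0.40 and rho = 0.41 (permutation test, p = 0.00997 and 0.00979, adjusted p = 0.0419 and 0.0412). Without the 2 farthest pigs these were 0.37 and 0.34, and within batches 2, 3 and 5 they were 0.50, 0.54 and 0.35 for PRDX3 and 0.49, 0.11 and 0.49 for PRDX5.

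CAT and NNT had r = 0.36 and rho = 0.33 (permutation test, p = 0.0192 and 0.0347, adjusted p = 0.0672 and 0.116), so that this pair passed on r and not on rho, with 0.33 without the 2 farthest pigs and 0.39, 0.49 and 0.52 within the batches. With nothing removed it had r = 0.24 (permutation test, adjusted p = 0.198). Of the 12 pairs that passed on r with nothing removed 8 were positive and 4 negative. Of the negative ones CAT with TXN2, TXN2 with NNT and PRDX5 with NNT had r = -0.51, -0.39 and -0.35 (permutation test, adjusted p = 0.00262, 0.0298 and 0.0453). They did not pass on rho, at -0.31, -0.23 and -0.12 (adjusted p = 0.104, 0.28 and 0.545). Without the 2 farthest pigs their r was -0.34, -0.14 and -0.21. CAT with PRDX5 passed on both, at r = -0.38 and rho = -0.33 (permutation test, adjusted p = 0.0299 and 0.0806). Pairs whose correlation did not pass included SOD1 with SOD2 (r = 0.21) and TXN2 with NNT (r = -0.09). The permutations treat the 41 pigs as free to trade places and do not count the covariates that were removed. The pairs share libraries and scaling, which moves all genes of a pig together.

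**Figure D5:**
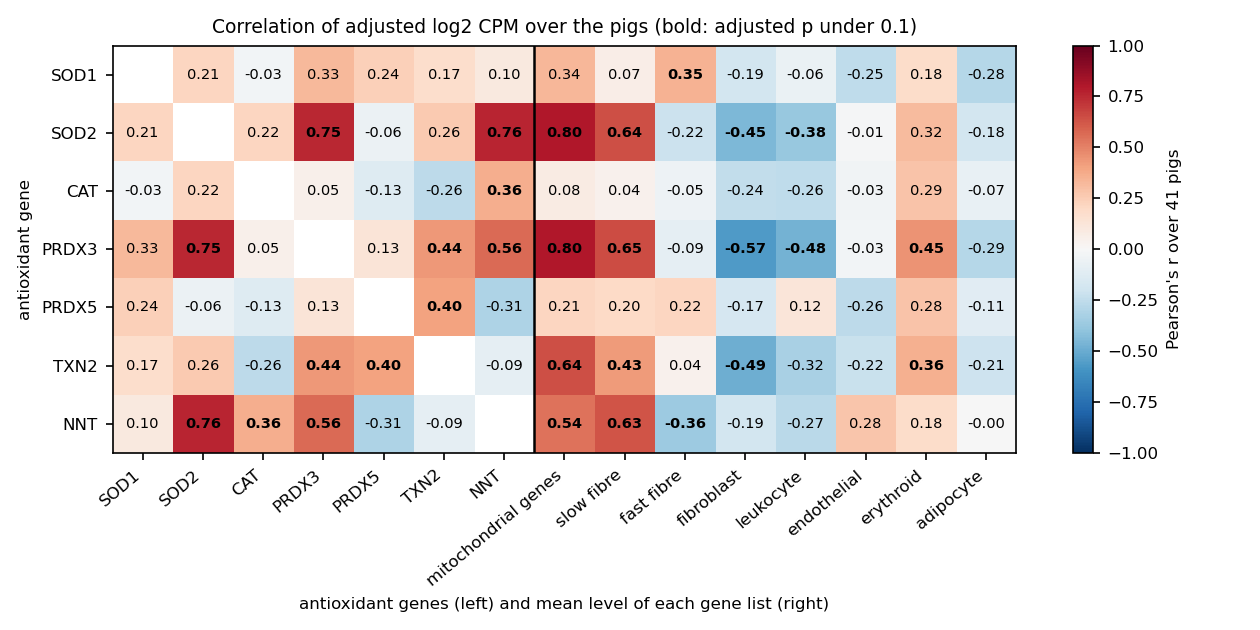
Pearson's r over 41 pigs (colour scale from -1 to 1, with its value in each cell) between the adjusted log2 CPM of 7 antioxidant genes, to the left of the line, and between these genes and the mean of 8 gene lists, to the right of it, with bold where the adjusted p is under 0.1. SOD2, PRDX3 and NNT are linked to each other and to mitochondrial genes and slow fibre markers, while CAT is near 0 for both lists.

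The same genes went with mitochondrial and slow fibre genes at large. Of 56 correlations of a gene with a mean over a list, 17 passed at an adjusted p under 0.1, 11 positive and 6 negative. SOD2 and PRDX3 went with the mean of 16 mitochondrial genes at r = 0.80 for each (rho = 0.77 and 0.78, permutation test, p = 1e-05, adjusted p = 0.000187 for r and 0.00028 for rho), TXN2 at r = 0.64 (rho = 0.64, permutation test, p = 3e-05 and 4e-05, adjusted p = 0.00028 and 0.000672) and NNT at r = 0.54 (rho = 0.52, permutation test, p = 0.00022 and 0.00063, adjusted p = 0.00154 and 0.00441). Within batches 2, 3 and 5 the r of SOD2 was 0.90, 0.81 and 0.77, that of PRDX3 0.89, 0.77 and 0.78, that of TXN2 0.60, 0.73 and 0.65 and that of NNT 0.82, 0.60 and 0.32. Without the 2 farthest pigs the 4 values were 0.74, 0.73, 0.57 and 0.51. With nothing removed NNT did not pass, at r = 0.25 and rho = 0.27 (permutation test, adjusted p = 0.199 and 0.167), with 0.33 without the 2 farthest pigs and 0.55, 0.28 and -0.32 within the batches, while SOD2, PRDX3 and TXN2 passed at 0.61, 0.84 and 0.72. With the covariates removed CAT, of the peroxisome, had r = 0.08 with that mean, and PRDX5 r = 0.21, and neither passed. SOD1 had r = 0.34 and rho = 0.35 (permutation test, adjusted p = 0.101 and 0.0926), and so passed on rho only. With nothing removed PRDX5 and SOD1 passed as well, at r = 0.55 and 0.51 (rho = 0.54 and 0.48, permutation test, adjusted p of r = 0.000996 and 0.00314), but in batch 3 they were at -0.06 and 0.13. CAT did not pass there (r = -0.26).

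With the mean of 6 slow fibre markers, r was 0.65 for PRDX3, 0.64 for SOD2, 0.63 for NNT and 0.43 for TXN2 (rho = 0.58, 0.58, 0.60 and 0.43, permutation test, adjusted p of r = 0.000187, 0.000224, 0.000224 and 0.0228), and 0.55, 0.52, 0.54 and 0.44 without the 2 farthest pigs. Within batches 2, 3 and 5 they were 0.77, 0.73 and 0.59 for PRDX3, 0.79, 0.71 and 0.48 for SOD2, 0.79, 0.79 and 0.40 for NNT and 0.52, 0.45 and 0.44 for TXN2. Negative ones included PRDX3, SOD2 and TXN2 with the mean of 6 fibroblast markers, at r = -0.57, -0.45 and -0.49 (rho = -0.58, -0.49 and -0.43, permutation test, adjusted p of r = 0.00096, 0.0162 and 0.00734), and these held their sign in each of the 3 batches. With the mean of 8 leukocyte markers PRDX3 had r = -0.48 and rho = -0.47 (permutation test, adjusted p = 0.0104 and 0.0109), with -0.53 without the 2 farthest pigs. SOD2 had r = -0.38 (permutation test, adjusted p = 0.0625) but rho = -0.33 (adjusted p = 0.118), with -0.40 without those pigs, and both genes kept their sign in each batch. With the mean of the 2 erythroid markers PRDX3 had r = 0.45 and rho = 0.43 (permutation test, adjusted p = 0.0162 and 0.0247), with 0.32 without the 2 farthest pigs. TXN2 had r = 0.36 (permutation test, adjusted p = 0.0762) but rho = 0.30 (adjusted p = 0.155), with 0.32 without those pigs, and both were positive in each batch. SOD1 and the fast fibre markers had r = 0.35 and rho = 0.35 (permutation test, adjusted p = 0.0883 and 0.0888), with 0.34 without the 2 farthest pigs and -0.07, 0.54 and -0.21 within batches 2, 3 and 5, so the relation did not hold in every batch. NNT and the fast fibre markers had r = -0.36 (permutation test, adjusted p = 0.0796) and rho = -0.24 (adjusted p = 0.275), with -0.19 without the 2 farthest pigs and -0.09, -0.82 and 0.13 within batches 2, 3 and 5, so that relation did not hold in every batch. With nothing removed from log2 CPM, an alternative chosen after seeing the data, it was r = -0.66 and rho = -0.67 (permutation test, adjusted p = 0.000187 and 0.000112), with -0.65 without the 2 farthest pigs and -0.75, -0.85 and -0.39 within the batches. Handled the same way, NNT and the mean of 4 endothelial markers had r = 0.53 and rho = 0.51 (permutation test, adjusted p = 0.00207 and 0.00375), with 0.45 without the 2 farthest pigs and 0.34, 0.66 and 0.65 within the batches, where with the covariates removed r was 0.28 (adjusted p = 0.172). With nothing removed the pairs SOD2 with fibroblast markers (r = -0.16), SOD2 with leukocyte markers (r = -0.28) and PRDX3 with erythroid markers (r = 0.26) did not pass (permutation test, adjusted p = 0.4, 0.157 and 0.172).

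The genes whose levels were most like those of each antioxidant gene, by Pearson's r over the same 41 adjusted values, are given as a description. For NNT they were ACADL (0.88), an enzyme of fatty acid oxidation, ETFA (0.86), which carries electrons from it, and DLST (0.85), of the citric acid cycle. For SOD2 the list held PDHA1 (0.84), of pyruvate dehydrogenase, and UQCRC2 (0.82), of the respiratory chain. For PRDX3 it held NDUFA4 (0.82), of the respiratory chain, and HADH (0.81), of fatty acid oxidation, and for TXN2 NDUFS3 (0.81) and UQCR10 (0.80), both of the respiratory chain. CAT had SLC25A34 (0.78) and SLC25A20 (0.74), both mitochondrial carriers, SOD1 had CDKN2D (0.66) and CCDC102A (0.65), and PRDX5 had SNTB2 (0.68). Each list but that of NNT also held 1 gene without a symbol.

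In the summed stranded columns, which add GPX4, 11 of 28 pairs passed, 10 of them positive. GPX4 went with TXN2 (r = 0.55, rho = 0.57, permutation test, adjusted p = 0.00112) and with SOD1 (r = 0.53, rho = 0.58, permutation test, adjusted p = 0.00224). Within batches 2, 3 and 5 they were 0.69, 0.01 and 0.83 for TXN2 and 0.28, 0.68 and 0.60 for SOD1. The negative pair was GPX4 with NNT (r = -0.34, rho = -0.34, permutation test, adjusted p = 0.0801), which was 0.19 in batch 2, -0.48 in batch 3 and -0.46 in batch 5. Both GPX4 and SOD1 are counted there with pairs of SBNO2 and SCAF4.

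The rest of the antioxidant system was read from 6 lists, and each count is beside the same background of 33.1% for breed and 51.8% for RIN. Of 10 other superoxide and peroxide enzymes tested, 2 were higher in Landrace and 0 lower (1 and 2 with library size scaling). The 2 were GPX2 (2.27, SE 0.78, FDR = 0.0289), with a mean of 11.14 CPM and an SD of 9.98 over the 28 Landrace pigs against 3.76 CPM and an SD of 4.80 over the 13 Duroc pigs, and GPX8 (0.34, FDR = 0.0771). With RIN, 1 of the 10 rose and 3 fell (5 and 2 with library size scaling), among them CCS (-0.73, FDR = 7.05e-07), the copper chaperone of SOD1, and the cytosolic peroxiredoxins PRDX2 (-0.56, FDR = 3.7e-06) and PRDX1 (-0.34, FDR = 0.0156).

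Of 18 genes of the thioredoxin, glutaredoxin and glutathione system 3 were higher and 3 lower in Landrace (3 and 5 with library size scaling). MSRB2, a mitochondrial methionine sulfoxide reductase, was the lowest at -1.99 (SE 0.21, FDR = 2.12e-08), at a mean of 1.29 CPM (SD 0.427) in Landrace against 4.52 CPM (SD 1.04) in Duroc. Its relative MSRB1 went the other way at 0.77 (SE 0.17, FDR = 0.00162), at 66.7 CPM (SD 22.7) in Landrace against 34.0 CPM (SD 13.2) in Duroc, and GLRX3 was higher by 0.35 (FDR = 0.0011). With RIN 3 of the 18 rose and 7 fell (9 and 2 with library size scaling), with GLRX5 (-0.67), SESN2 (-0.91) and GLRX3 (-0.24) of the smallest p. The reductase that recharges TXN2, TXNRD2, was lower in Landrace by -0.25 (FDR = 0.0946) and fell with RIN by -0.31 (FDR = 0.00278). It was singled out after its values were seen.

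Of 12 other genes of NADPH supply 4 were lower in Landrace and 0 higher (7 and 0 with library size scaling), a share close to that of all genes called for breed. The median of their breed coefficients was -0.29, where that of all genes was -0.002. The 4 were MTHFD2 (-0.53, FDR = 0.00499), ME3 (-0.52, FDR = 0.0184), GLUD1 (-0.28, FDR = 0.0384) and IDH2 (-0.34, FDR = 0.0499), all enzymes of the mitochondrial matrix, IDH2 named because the count is small. With RIN 4 of the 12 rose, with ALDH1L2 (0.54) and ME1 (0.31) first, and 2 fell (9 and 0 with library size scaling).

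The NRF2 pathway, by which cells switch on antioxidant genes, had 14 genes tested, 4 higher and 1 lower in Landrace (0 and 1 with library size scaling). KEAP1, which holds NRF2 back, was higher by 0.35 (SE 0.08, FDR = 0.0013), BACH1, which blocks the same sites, was higher by 0.63 (FDR = 0.0341), and BLVRB was lower by -0.53 (FDR = 0.0242). With RIN 1 of the 14 rose, CUL3 (0.37), and 6 fell (7 and 1 with library size scaling), with BLVRB at -1.05 and TALDO1 at -0.41. Of the 6 lists it was the 1 with calls for age, 2 of 14 genes beside the 1.76% of all genes, where MAFG (-0.39 per 10 days, FDR = 0.0768) and MAFF (-0.94, FDR = 0.0995) were lower in older pigs, but with library size scaling 0 of the 14 were called. For FCR 0 genes of any of the 6 lists were called.

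Of 13 genes of selenoprotein synthesis and other selenoproteins, SECISBP2 was the only one called for breed, higher by 0.24 (FDR = 0.0359), while with library size scaling 4 were lower and 0 higher. With RIN 1 rose and 6 fell (7 and 4 with library size scaling), with SELENOH (-0.67), EEFSEC (-0.50) and SELENOO (-0.49) first. Of 7 metallothioneins and glutathione transferases tested, 1 was called for breed, GSTK1 (-0.50, FDR = 0.0309), which was lower (3 lower with library size scaling), and 6 for RIN, where 5 fell and 1 rose (0 and 1 with library size scaling), among them GSTZ1 (-0.41), MGST3 (-0.47) and GSTO1 (-0.48).

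The 16 mitochondrial genes used as a reference bear on NNT, SOD2, PRDX3 and TXN2. Of these 16, 5 were lower in Landrace and 0 higher (11 and 0 with library size scaling), ATP5F1A by -0.48 (FDR = 0.00592), TOMM20 by -0.36 (FDR = 0.00756) and SDHA by -0.31 (FDR = 0.0194) among them, and their median breed coefficient was -0.17. Their summed level ran from 3640 to 5578 CPM in Duroc and from 2968 to 5310 CPM in Landrace, so the ranges overlap. The coefficient of NNT, at -0.77, was larger in size than that of any of the 3 named. With RIN 9 of the 16 fell and 1 rose (4 and 7 with library size scaling), with COX4I1 at -0.94, SDHA at -0.50 and TUFM at -0.46. Of the antioxidant genes in mitochondria TXN2, PRDX5 and PRDX3 moved in the direction of these 9 genes and NNT in the other.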

How the data were processed

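The authors trimmed 100 base unstranded read pairs with Trimmomatic 0.39 and aligned them with STAR 2.7.1a to Sscrofa11.1, which counted pairs per Ensembl gene, and the deposited values are these raw counts for each of 41 pigs, without normalization. The unstranded column was used, as in the study, and the sum of the stranded columns where overlap with another gene removed pairs. Rows that name no gene (19.1% to 30.1% of each library's pairs) were left out, and counts on genes ran from 22188911 to 25954816 per pig. Of 25880 genes 14857 matched a symbol. Spans are from RefSeq on the same assembly. The groups and covariates are those of the sample labels, and no pig was left out. None of the 820 pairs of libraries agreed within counting noise (lowest chi-squared per degree of freedom 15.8).

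Genes were tested in R 4.3.3 by edgeR 4.0.16 with quasi-likelihood (legacy fit, TMM factors, filterByExpr with a minimum count of 10) in a model of breed, RIN, age and FCR, in which batch was a factor, and Benjamini-Hochberg adjustment over all genes. DESeq2 1.42.0 (5 counts or more in every pig), limma 3.58.1 with voom, other scalings, filters and covariates, fits within batches and breeds, and each pig left out in turn were alternatives. On simulated counts with 200 genes changed by a log2 value of 1 between breeds (11106 genes), edgeR recovered 97% and 8.49% of its calls were false. The simulated counts held no effect of RIN, age, FCR or batch, and the planted change was larger than the -0.77 of NNT. These shares therefore do not give the power or the false calls for the coefficients reported here. Correlations used log2 CPM with a prior count of 2 and 100000 permutations, two-sided, adjusted within each family. Intervals are 95% and span 1.96 SE.

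Every antioxidant gene is reported. From each other list the 3 called genes with the smallest p were named, and for each antioxidant gene the 3 most correlated genes, apart from results not reported here. The antioxidant genes and the lists were chosen with earlier results of these data known. Whether pigs shared litters is not given in the labels. No sequences are shown and no levels per length, since neither a genome nor exon lengths were used here.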

Additional observations from a re-analysis of the deposited data

Results flagged for a closer look

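GPX4 was at 0 in the unstranded column of all 41 pigs, the column that the comparisons use, and at a median of 52.1 CPM (38.9 to 108) in the sum of the stranded columns, which lie outside the main measurement. Their number matched that of the pairs left out of SBNO2, so they are read here as shared with SBNO2, and which gene they come from was not tested.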

How the results depend on the processing

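The fall of NNT in Landrace kept its direction under all alternatives and was called under all but the fits within batches 3 and 5, which hold 9 and 11 pigs. The number of antioxidant genes called for breed, 1, became 5 with library size scaling, 2 within batch 2, and 0 within batches 3 and 5. For RIN, 5 became 3 without the 2 pigs of RIN under 7 and 0 within batch 3. For batch, 1 became 2 with DESeq2 and with DESeq2 size factors in edgeR, and 3 in the summed stranded columns, and with library size scaling the 1 gene was TXN2 in place of PRDX3. With 1 pig left out at a time the counts were 1 to 2 for breed (2 without Duroc 1), 4 to 6 for RIN, 0 for age and 0 for FCR. The correlated pairs, 6 and all positive, became 12 with nothing removed (8 positive and 4 negative, without PRDX3 and NNT or CAT and NNT) and 11 with GPX4 in the summed stranded columns (10 positive and 1 negative). These are counts on r. Of the 4 negative pairs with nothing removed, CAT with PRDX5 passed on rho and CAT with TXN2, TXN2 with NNT and PRDX5 with NNT did not. Those columns with GPX4, and every alternative run on them for SOD1 and GPX4, were chosen after seeing the data. Over single genes, and without the fits within a breed, 371 of 447 alternative values kept their direction and side of the threshold, 10 were newly called, 13 were no longer called and 53 changed sign. Except for RIN in SOD1 and PRDX3 with library size scaling, none of these 53 was called. The cause of these changes was not tested.

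Apart from the fits within a breed, the values for breed that changed sign were 0.070 (batch 5) and 0.066 (summed stranded) for SOD1, 0.27 (batch 5) for SOD2, -0.75 (batch 3) for CAT, 0.17 (batch 3) and 0.12 (batch 5) for PRDX3, 0.053 (batch 3) for PRDX5, 0.49 (batch 3) and 0.034 (batch 5) for TXN2. For RIN they were 0.17 (library size) for SOD1, -0.015 (without the 2 pigs of RIN under 7) for SOD2, 0.14 (library size), 0.15 (batch 3) and 0.027 (batch 5) for PRDX3. Per 10 days of age they were 0.42 (batch 3) for SOD1, 0.056 (library size) and 0.078 (batch as a number) for SOD2, 0.39 (batch 3) for CAT, 0.00096 (library size) and 0.024 (batch 5) for PRDX3, -0.085 (batch 2) and -0.19 (batch 5) for PRDX5, 0.062 (library size), 0.0042 (batch as a number) and 0.052 (batch 5) for TXN2. Per 0.1 of FCR they were -0.30 (batch 3) and -0.011 (summed stranded) for SOD1, 0.048 (library size), 0.049 (batch 2) and 0.31 (batch 3) for SOD2, -0.11 (batch 5) for CAT, 0.051 (library size), 0.0026 (no filter), 0.23 (batch 3) and 0.0015 (summed stranded) for PRDX3, 0.0067 (library size), 0.019 (batch 2) and 0.13 (batch 3) for TXN2. In the summed stranded columns they were -0.11 for SOD1 in breed (library size), -0.15 for GPX4 in breed (library size), -0.019 for GPX4 in breed (without age), 0.0013 for SOD1 in RIN (library size), 0.043 for SOD1 in FCR (library size) and 0.017 for GPX4 in FCR (library size). Within a breed, in the unstranded column, none of the 5 RIN calls was made in Duroc, where 0 genes of all were called (1824 with an unadjusted p under 0.05) by edgeR, the only tool run there for RIN, and the sign differed from that over both breeds for RIN in SOD1 (0.14) and PRDX3 (0.11) in Duroc, for age in SOD2 (0.17) and PRDX3 (0.032) in Landrace and in CAT (0.045), PRDX5 (-0.093), TXN2 (0.043) and NNT (-0.055) in Duroc, and for FCR in SOD2 (0.032), PRDX3 (0.0026) and TXN2 (0.016) in Landrace and in CAT (-0.030) in Duroc, with 0 of these called. With 1 pig left out at a time the values that spanned 0 ran from -0.088 to 0.0019 for SOD1 in breed, -0.00040 to 0.14 for SOD2 in RIN, -0.071 to 0.15 for SOD2 in age, -0.099 to 0.041 for PRDX3 in age, -0.016 to 0.15 for PRDX5 in age, -0.052 to 0.050 for TXN2 in age, -0.0019 to 0.034 for SOD1 in FCR, -0.039 to 0.029 for SOD2 in FCR and -0.020 to 0.012 for PRDX3 in FCR.

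No paired analysis was possible because the replicate numbers of the pigs only name them and pair no Duroc with a Landrace pig. Depth limits PRDX5 most, at 93 to 214 pairs per pig.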
